A study of Mus musculus with 6 samples.

Results

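The genes described here are listed as those of the late granule proteins of neutrophils and of the mature cell: Lcn2, Camp, Ngp, Ltf, Hp, Mmp8, Mmp9, Chil3, Padi4 and Cxcr2. These 10 genes, of 21878 rows in each deposited table, were selected by symbol, and they were chosen from earlier results of the same 6 libraries, in which their difference between the diets was already known. The values below are therefore descriptions and carry no test for these 10 genes. The libraries are RNA sequencing of wild-type (WT) mouse bone marrow cells sorted as LT-HSCs (long-term hematopoietic stem cells), rare marrow cells able to sustain all blood lineages. The sort took cells without lineage antigens, CD34 or CD135 (the product of Flt3) and with c-Kit and Sca1. The mice had been fed for 3 months on a serine/glycine-free diet (SGFD, 3 libraries) or on a control diet (CD, 3 libraries). The age and sex of the mice and any pooling of animals are not given in the sources used here, so the spread between libraries may be partly technical.

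A neutrophil fills its granules in a fixed order. The azurophil granules come first, in the promyelocyte, and carry myeloperoxidase and serine proteases. The secondary (specific) granules follow in the myelocyte with lactoferrin, the cathelicidin and lipocalin 2, the tertiary granules come later with gelatinase, and the surface receptors for chemokines appear last, as the cell gets ready to leave the marrow. The transcription factor C/EBP epsilon is required for the secondary granule genes in mice.

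The deposited values are taken as FPKM, fragments scaled to the gene's length and to the depth of the library. Every value above 0 was a whole multiple, within 0.01 fragments, of a step set by the gene and the library, so whole fragments could be recovered, and these came to between 18770738 and 19850032 per SGFD library and between 18687043 and 19013357 per CD library. For the 10 genes, the gene length this implies was 0.796 to 1.16 times that of the longest annotated coding transcript. A whole multiple particular to any of these genes would have shown here, but a factor common to all genes would not. Fragments are given below beside FPKM because most of these genes are scarce: 7 of the 10 averaged under 1 FPKM with CD and 4 did so with SGFD. Intervals on fragments cover counting error only. In sorted bulk cells, more cells of a type and more RNA per cell cannot be told apart. Libraries of a diet differed by more than counting alone gives (a mean chi-square per gene of 4.92 to 12.7 between SGFD libraries and 2.81 to 3.78 between CD libraries), so none was a copy of another.

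As to the label, Kit, Procr and Hlf, genes of the LT-HSC, were present in all libraries, and the 9 LT-HSC markers summed to 183.5 to 195 FPKM with SGFD, against 323 to 325 FPKM with CD. The mRNAs of both antigens that the sort selects against were also abundant: Cd34 had 429 ± 8.58 FPKM with SGFD and 471 ± 15.4 FPKM with CD, and Flt3 had 90.5 ± 3.72 FPKM with SGFD and 113.7 ± 1.19 FPKM with CD (SD, n = 3 each).

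The start regions of 7 of the 10 genes are shown, those of every gene that has a window and whose diets did not overlap. Lcn2, Ngp, Ltf and Mmp8 hold a C/EBP-type match, and Camp, Cxcr2 and Padi4 hold none. Each window is from RefSeq (GRCm38.p6), runs 5′ to 3′ on the gene's own strand, and covers 250 bases before to 50 bases after the annotated start. Capitals mark the C/EBP letters TTGCNNAA and the PU.1 letters GAGGAA, each searched on both strands; no C/EBP match overlapped a PU.1 match.
Lcn2, chr2:32387690-32387989, minus strand: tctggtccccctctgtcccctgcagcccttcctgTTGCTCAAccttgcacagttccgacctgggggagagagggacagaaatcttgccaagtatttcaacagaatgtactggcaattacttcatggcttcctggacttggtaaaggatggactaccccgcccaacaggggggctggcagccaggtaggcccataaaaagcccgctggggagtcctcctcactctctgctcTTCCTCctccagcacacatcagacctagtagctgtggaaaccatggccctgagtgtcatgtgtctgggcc
Ngp, chr9:110419558-110419857, plus strand: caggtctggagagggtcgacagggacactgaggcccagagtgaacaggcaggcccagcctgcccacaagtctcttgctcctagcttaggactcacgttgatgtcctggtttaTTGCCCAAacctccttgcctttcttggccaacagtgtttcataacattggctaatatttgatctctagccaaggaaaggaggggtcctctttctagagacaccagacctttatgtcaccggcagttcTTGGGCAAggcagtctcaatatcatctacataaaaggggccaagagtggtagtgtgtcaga
Ltf, chr9:111019042-111019341, plus strand: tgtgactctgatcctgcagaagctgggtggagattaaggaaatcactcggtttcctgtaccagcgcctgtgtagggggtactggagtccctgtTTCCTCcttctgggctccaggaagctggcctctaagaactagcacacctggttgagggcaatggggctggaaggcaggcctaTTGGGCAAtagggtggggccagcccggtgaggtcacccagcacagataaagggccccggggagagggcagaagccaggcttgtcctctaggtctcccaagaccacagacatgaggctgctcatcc
Mmp8, chr9:7558179-7558478, plus strand: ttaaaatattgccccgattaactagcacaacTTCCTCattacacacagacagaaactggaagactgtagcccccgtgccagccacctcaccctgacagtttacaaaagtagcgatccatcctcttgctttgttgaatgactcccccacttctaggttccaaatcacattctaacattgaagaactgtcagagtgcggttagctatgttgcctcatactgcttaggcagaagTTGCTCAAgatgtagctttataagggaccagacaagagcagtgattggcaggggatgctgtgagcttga
Camp, chr9:109849407-109849706, minus strand: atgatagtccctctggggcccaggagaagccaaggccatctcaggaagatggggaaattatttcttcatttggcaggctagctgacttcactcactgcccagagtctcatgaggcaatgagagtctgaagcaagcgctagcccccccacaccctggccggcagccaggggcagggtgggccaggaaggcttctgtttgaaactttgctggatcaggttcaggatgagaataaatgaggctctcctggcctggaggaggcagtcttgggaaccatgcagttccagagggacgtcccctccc
Cxcr2, chr1:74153744-74154043, plus strand: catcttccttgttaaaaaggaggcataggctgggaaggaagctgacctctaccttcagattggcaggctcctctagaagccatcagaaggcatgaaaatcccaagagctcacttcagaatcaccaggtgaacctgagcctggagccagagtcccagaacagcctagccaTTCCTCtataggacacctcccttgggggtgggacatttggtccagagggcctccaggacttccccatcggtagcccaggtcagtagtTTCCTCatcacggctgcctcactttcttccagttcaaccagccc
Padi4, chr4:140774154-140774453, minus strand: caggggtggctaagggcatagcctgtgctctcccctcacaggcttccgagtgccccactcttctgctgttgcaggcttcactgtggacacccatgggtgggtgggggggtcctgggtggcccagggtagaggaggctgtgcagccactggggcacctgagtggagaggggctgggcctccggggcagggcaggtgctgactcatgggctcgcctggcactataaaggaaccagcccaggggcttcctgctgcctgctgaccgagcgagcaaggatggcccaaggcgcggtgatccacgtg

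The RefSeq promoter table held a window for 8 of the 10 genes, and gave none for Hp and Mmp9. TTGCNNAA was present in 4 of the 8 windows (Lcn2, Ngp, Ltf and Mmp8), against 10.8% of all 32851 windows of the same length in the table. Ngp had 2 matches, the nearer of them 11 bases before the start. GAGGAA was also present in 4 windows (Lcn2, Ltf, Mmp8 and Cxcr2), against 28.3% of all windows. The windows of Camp, Chil3 and Padi4 held neither. A match is a run of letters and not a measured binding site, and binding of either factor was not measured here. The genes were chosen with the diet contrast known, and whether the matches bear on the diet difference was not tested.

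Lcn2, lipocalin 2, a secondary granule protein that binds bacterial iron carriers, showed the widest ratio of the 10. It had 11.9, 12.5 and 12.1 FPKM in the SGFD libraries, against 0.428, 0.187 and 0.249 FPKM in the CD libraries. Behind these stood 195, 213 and 195 fragments with SGFD, against 7, 3 and 4 fragments with CD. All 3 SGFD libraries lay close together and far above every CD library. The ratio of means was 42.2, and the ratio of summed fragments, each scaled to its diet's summed depth, had a counting interval of 24.9 to 77.5 (95%, exact binomial), wide because only 14 fragments were seen in the CD libraries.

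Hp, haptoglobin, which captures free hemoglobin and is stored in neutrophil granules as well as secreted by liver, was the most abundant of the group with SGFD. It had 70.7, 58.8 and 66.8 FPKM with SGFD, against 3.53, 4.97 and 4.19 FPKM with CD, a ratio of means of 15.5. With 1581 to 1828 fragments per SGFD library and 91 to 126 per CD library, it is one of the better counted genes here. Every SGFD value was above every CD value.

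**Figure D1:**
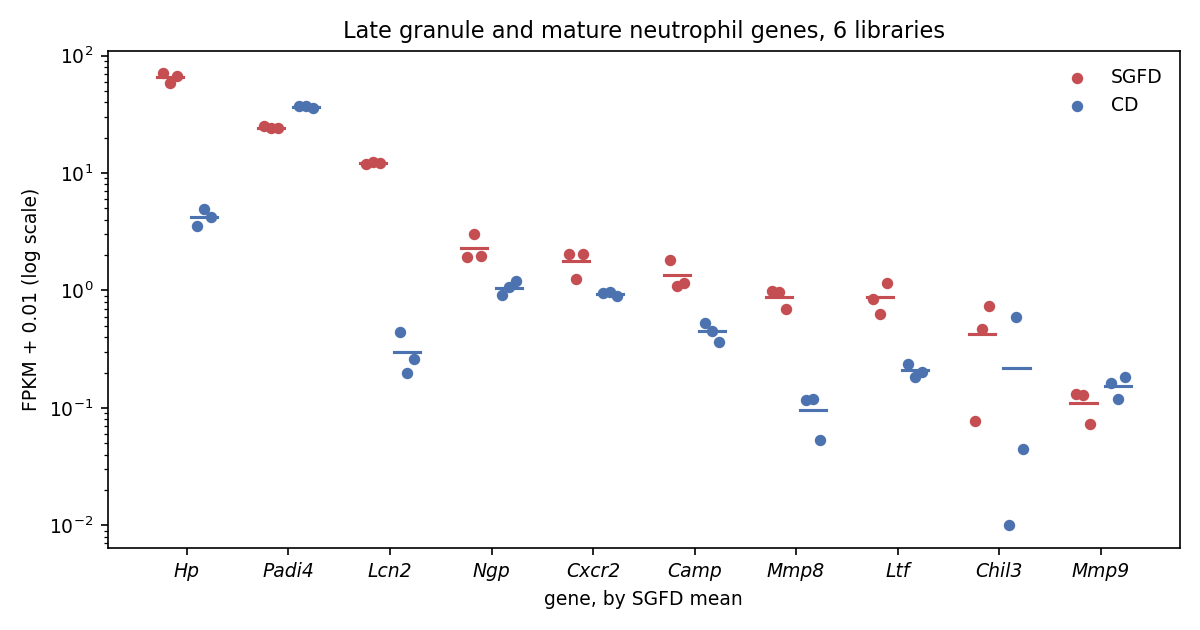
FPKM + 0.01 of each gene (vertical axis, log scale) in the SGFD libraries (red, left) and the CD libraries (blue, right), with a point per library and a line at the mean of 3. Hp, Lcn2, Ngp, Cxcr2, Camp, Mmp8 and Ltf had all SGFD values above all CD values, Padi4 had them below, and Chil3 and Mmp9 overlapped.

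The other secondary granule genes were higher with SGFD by smaller ratios and stayed scarce. Camp, the cathelicidin antimicrobial peptide, had 1.82, 1.09 and 1.15 FPKM with SGFD (21, 13 and 13 fragments), against 0.523, 0.443 and 0.355 FPKM with CD (6, 5 and 4 fragments). Its ratio of means was 3.07, with a counting interval of 1.68 to 5.90.

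Ngp, neutrophilic granule protein, a relative of the cathelicidins, had 1.93, 3.02 and 1.96 FPKM with SGFD, against 0.899, 1.05 and 1.19 FPKM with CD. SGFD replicate 2 stood apart with 70 fragments, against 43 in each of the other SGFD libraries, and the ratio of means was 2.20.

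Ltf, lactoferrin, the iron-binding protein of the same granules, had 0.835, 0.620 and 1.14 FPKM with SGFD (44, 34 and 59 fragments), against 0.228, 0.174 and 0.194 FPKM with CD (12, 9 and 10 fragments). Its ratio of means was 4.35 with a counting interval of 2.91 to 6.60, and the diets did not overlap for any of Camp, Ngp and Ltf.

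Among the matrix-degrading enzymes of the granules, the collagenase gene was separated by diet and the gelatinase gene was not. Mmp8, neutrophil collagenase of the secondary granules, had 0.976, 0.958 and 0.690 FPKM with SGFD (46, 47 and 32 fragments), against 0.106, 0.108 and 0.0433 FPKM with CD (5, 5 and 2 fragments). All SGFD libraries were above all CD libraries, with a ratio of means of 10.2 and a counting interval of 5.63 to 20.2.

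Mmp9, gelatinase B of the tertiary granules, had 0.122, 0.118 and 0.0623 FPKM with SGFD (8, 8 and 4 fragments), against 0.154, 0.109 and 0.172 FPKM with CD (10, 7 and 11 fragments). The diets overlapped, and the counting interval of the ratio, 0.373 to 1.29, spans equality. That interval leaves out the spread between libraries and is not a test of Mmp9. Whether the ratios of Mmp8 and Mmp9 differ was not tested.

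Chil3, the chitinase-like protein Ym1 of mouse neutrophils and macrophages, was carried by a few libraries. It had 0.0676, 0.455 and 0.722 FPKM with SGFD (2, 14 and 21 fragments), against 0, 0.586 and 0.0345 FPKM with CD (0, 17 and 1 fragments). The diets overlapped, since CD replicate 2 exceeded the lowest and the middle SGFD library, and a count of 0 in CD replicate 1 allows up to 3 fragments. The counting interval of its ratio, 1.115 to 3.749, lies above equality but leaves out the spread between libraries, which was wide for Chil3. Its close paralog Chil4 was listed at 0 in all 6 libraries; reads shared between the paralogs could be split by the counting, so Chil3 is uncertain.

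The genes listed here with the mature cell, Cxcr2 and Padi4, went opposite ways. Cxcr2, the receptor that draws neutrophils out of the marrow toward CXC chemokines, had 2.05, 1.25 and 2.05 FPKM with SGFD (123, 78 and 121 fragments), against 0.936, 0.951 and 0.884 FPKM with CD (56, 56 and 52 fragments). SGFD replicate 2 was the closest to the CD libraries, without overlap, and the ratio of means was 1.93.

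Padi4, peptidylarginine deiminase 4, which citrullinates histones when neutrophils release chromatin traps, was the only gene of the 10 with every SGFD value below every CD value. It had 25.1, 24.1 and 24.0 FPKM with SGFD, against 37.0, 37.4 and 36.0 FPKM with CD, a ratio of means of 0.664. With 1216 to 1292 fragments per SGFD library and 1815 to 1897 per CD library it was the best counted gene of the group with CD. Padi4 averaged 36.8 FPKM with CD, where the neutrophil antigen gene Ly6g had at most 1 fragment a library and Csf3r averaged 42.7 FPKM. Padi4 mRNA is therefore not taken as a sign of mature neutrophils, and which cells carried it was not tested. Padi2, a relative in the same gene cluster, had 13.2 ± 1.77 FPKM with SGFD and 13.5 ± 0.283 FPKM with CD (SD, n = 3 each). It did not pass the test across all genes (limma, adjusted p = 0.76).

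In all, 7 of the 10 genes had SGFD values wholly above the CD values, 1 had them wholly below and 2 overlapped. Over the 15509 genes above 0 in any library, the SGFD values were wholly above for 15.1% and wholly below for 36.4%. In the fit across all genes described below, 6 of the 10 reached the filter of 1 FPKM in at least 3 libraries, 3 of these with every CD value under 1 FPKM, and 5 were called higher and 1 lower, where 17.7% of all tested genes were called higher and 41.8% lower. Because this contrast was known when the genes were chosen, nothing is read from these counts.

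The order of levels, in mean FPKM, differed between the diets. With SGFD it was Hp, Padi4, Lcn2, Ngp, Cxcr2, Camp, Mmp8, Ltf, Chil3 and Mmp9. The libraries of neighbors in this order overlapped for Ngp with Cxcr2, Cxcr2 with Camp, Mmp8 with Ltf, Ltf with Chil3 and Chil3 with Mmp9, and for no other neighbors. With CD it was Padi4, Hp, Ngp, Cxcr2, Camp, Lcn2, Chil3, Ltf, Mmp9 and Mmp8. Here the overlaps were those of Ngp with Cxcr2, Camp with Lcn2, Lcn2 with Chil3 and Chil3 with Ltf. Lcn2 stood in place 3 with SGFD and in place 6 with CD, and Mmp8 in place 7 with SGFD and in place 10 with CD. The FPKM of Lcn2 was 6.52, 11.5 and 10.5 times that of Camp in the SGFD libraries, against 0.819, 0.421 and 0.702 times in the CD libraries.

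Together the 10 genes took 188.7, 168.8 and 181.2 fragments per 1000000 recovered fragments in the SGFD libraries, against 110.7, 114.3 and 108.7 in the CD libraries. Padi4 made up 35.7% to 38.6% of these fragments with SGFD and 88.3% to 90.2% with CD. Hp made up 47.2% to 50.8% with SGFD and 4.33% to 5.89% with CD. The CD totals were thus mainly Padi4 and are not read as a measure of neutrophil mRNA. Without Hp and Padi4, the other 8 genes took 24.0 to 26.0 fragments per 1000000 with SGFD, against 5.89 to 6.68 with CD.

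**Figure D2:**
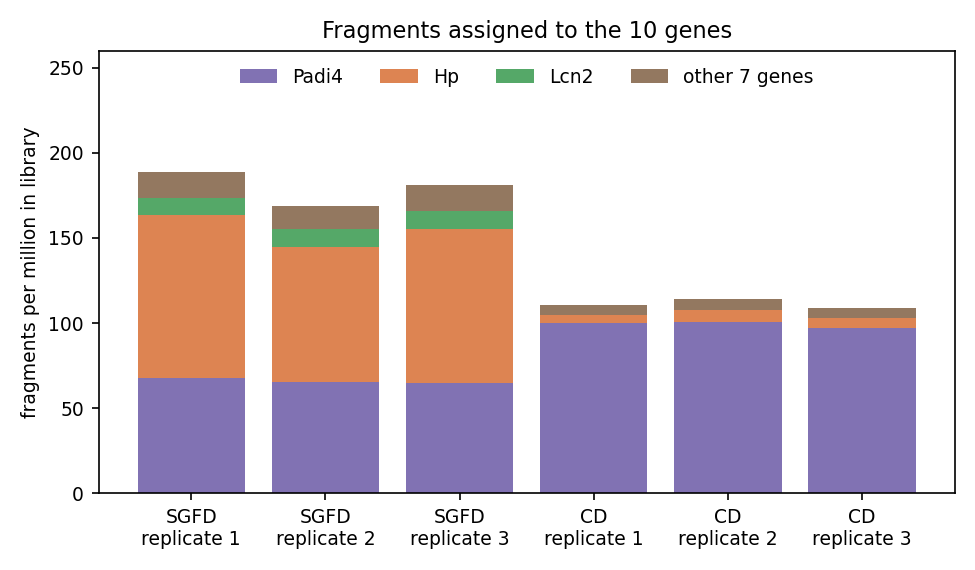
Recovered fragments per 1000000 of the library (vertical axis) of Padi4, Hp, Lcn2 and the other 7 genes, stacked for each SGFD library (left) and each CD library (right). The stacks reach 168.8 to 188.7 with SGFD and 108.7 to 114.3 with CD, and Lcn2 is too small to see in the CD libraries.

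The SGFD libraries did not rank the genes alike. SGFD replicate 2 was the lowest of the 3 for Hp, Camp, Ltf and Cxcr2 and the highest for Lcn2 and Ngp. Set against counting error, where a chi-square near its 2 degrees of freedom is expected, Lcn2 (0.256) and Padi4 (1.48) varied no more than counting gives between SGFD libraries. Hp (29.8), Chil3 (15.4), Cxcr2 (14.8), Ltf (8.37) and Ngp (7.59) varied more. Between CD libraries the largest values were those of Chil3 (30.6) and Hp (6.27).

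Camp, Ngp and Ltf lie within a stretch of 1.2 Mb on chromosome 9 (GRCm38, chr9:109847377-111042766). Of the 27 other protein-coding genes of that stretch in the tables, none had all SGFD values above all CD values, 8 had them below and 19 overlapped, where 15.1% of all genes above 0 were wholly above and 36.4% wholly below. Among the 19, Prss43, Prss44, Prss45, Prss46, Tdgf1 and Rtp3 were at 0 in all libraries and could only overlap, while the shares leave such genes out. The log2 ratio of mean FPKM + 1, SGFD over CD, was 0.71 for Camp, 0.69 for Ngp and 0.64 for Ltf, and the highest of the other genes was Pth1r at 0.22, whose diets overlapped. Mmp8 is on the same chromosome outside this stretch, from 7558429 to 7568486. Lcn2 (chromosome 2, 32384637 to 32387739) and Hp (chromosome 8, 109575128 to 109579172) lie elsewhere, as do Padi4 (chromosome 4, 140745508 to 140774239), Cxcr2 (chromosome 1, 74153994 to 74161246), Mmp9 (chromosome 2, 164940326 to 164955850) and Chil3 (chromosome 3, 106147554 to 106167564). No other annotated gene overlapped any of the 10 genes in GENCODE M21.

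**Figure D3:**
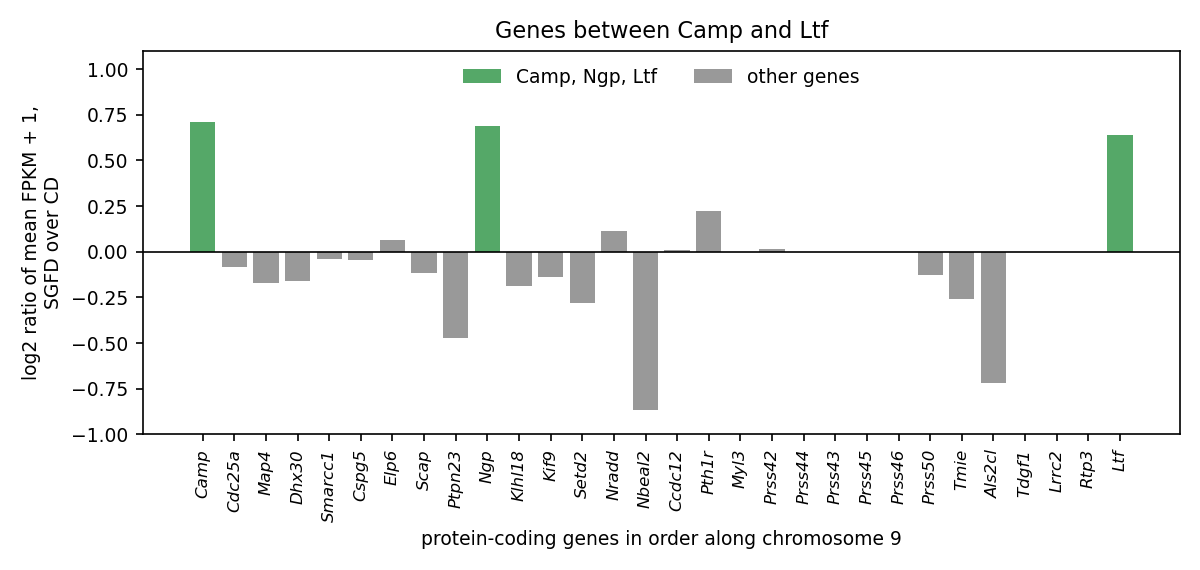
Log2 ratio of mean FPKM + 1, SGFD over CD (vertical axis), for 30 protein-coding genes in their order along chromosome 9 from Camp to Ltf. Camp, Ngp and Ltf (green) reach 0.64 to 0.71, and no other gene (grey) exceeds 0.22.

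To describe the neutrophil program beyond these genes, those that are not among the 10 were tested in a fit across the whole table. The lists below were also drawn up with earlier results of these libraries known. Their counts and p-values therefore describe the same 6 libraries and are not independent evidence. Log2(FPKM + 1) was fitted with limma for 10620 genes, and 1875 were called higher and 4438 lower with SGFD at a Benjamini-Hochberg adjusted p of 0.05. Over all tested genes the log2 fold changes had a median of -0.13, which became 0.0062 after median-ratio scaling and -0.017 after quantile normalization. Of the called genes 29.7% were higher, and this share was 53.8% after median-ratio scaling and 47.0% after quantile normalization.

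Azurophil granule genes, the first to be made, mostly rose: of 11 listed, 10 were tested, 8 rose and none was called lower (the list median was 0.85 on the log2 scale), against 17.7% and 41.8% of all tested genes. The proteases and the peroxidase of these granules led. Elane, neutrophil elastase, was at 332, 342 and 358 FPKM with SGFD, against 45.7, 45.2 and 43.5 FPKM with CD (limma, log2 fold change of 2.91 ± 0.04, SE, adjusted p = 2.54e-11). Ctsg had a log2 fold change of 2.49 ± 0.04 (SE; limma, adjusted p = 5.87e-11), Prtn3 one of 1.81 ± 0.04 (adjusted p = 1.60e-09) and Mpo, the most abundant, one of 1.84 ± 0.05 (adjusted p = 2.68e-09). Elane exceeded Lcn2 by 27.4 to 29.6 times in FPKM in the SGFD libraries and by 107 to 242 times in the CD libraries. Bpi, which arms azurophil granules against gram-negative bacteria, stayed below the filter at 0.0693 ± 0.0522 FPKM with SGFD and 0.0181 ± 0.0313 FPKM with CD (SD, n = 3 each).

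Of 23 other late granule genes, 10 were tested, of which 6 rose, 1 fell and 3 were not called, and the list median was 0.27 on the log2 scale, where 17.7% of all tested genes were called higher and 41.8% lower. The filter admitted Cybb through SGFD alone, so it could only be higher, and without it 5 of 9 rose with a median of 0.24. Slpi, an inhibitor of neutrophil elastase, had 25.7 ± 1.81 FPKM with SGFD and 6.36 ± 1.07 FPKM with CD (limma, adjusted p = 3.16e-07; SD, n = 3 each). Cybb, the catalytic subunit of the NADPH oxidase, had 3.73 ± 0.413 FPKM with SGFD and 0.494 ± 0.0743 FPKM with CD (SD, n = 3 each). Plaur and Anxa1 rose as well, with log2 fold changes of 0.92 ± 0.13 and 0.31 ± 0.04 (SE). Itgb2, the integrin beta chain CD18, fell by 0.34 on the log2 scale (limma, adjusted p = 0.00129), a call lost after quantile normalization (adjusted p = 0.0732). Lyz2, lysozyme and the most abundant of the list, had 136 ± 8.91 FPKM with SGFD and 146 ± 4.13 FPKM with CD and was not called (adjusted p = 0.119). Over all 23 without a filter, SGFD values were wholly above CD values for 10 and wholly below for 3, against 15.1% and 36.4% of genes above 0. Of the 23, Orm1 and Orm2 were at 0 in all 6 libraries.

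Of 28 other genes of mature neutrophils, 13 were tested, of which 12 rose and 1 fell, and the list median was 0.92 on the log2 scale, where 17.7% of all tested genes were called higher and 41.8% lower. The filter admitted Ifitm6 and Mrgpra2b through SGFD alone, so they could only be higher, and without them 10 of 11 rose with a median of 0.83. Over all 28 without a filter, SGFD values were wholly above CD values for 15 and wholly below for 1, against 15.1% and 36.4% of genes above 0, and 4 of the 28 were at 0 in all 6 libraries. Trem3 and Trem1, receptors that amplify inflammatory signals of myeloid cells, had log2 fold changes of 2.48 ± 0.12 and 2.26 ± 0.10 (SE; limma, adjusted p = 1.19e-07 and 1.01e-07). Ifitm6 had 2.40, 2.50 and 3.32 FPKM with SGFD, against 0, 0.196 and 0.0982 FPKM with CD. Mrgpra2b had 3.51, 3.30 and 3.65 FPKM with SGFD, against 0.0820, 0.167 and 0 FPKM with CD; it has the close paralog Mrgpra2a, so its value is uncertain. Csf3r, the receptor for the granulocyte growth factor G-CSF, went the other way with 26.2, 27.1 and 23.6 FPKM with SGFD, against 44.3, 37.9 and 45.9 FPKM with CD (limma, adjusted p = 3.99e-05). Alox5ap, the most abundant of the list and active in leukotriene synthesis, rose by a log2 fold change of 0.31 ± 0.05 (SE).

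The genes that dominate the mRNA of mature neutrophils were at low levels with both diets. S100a8, a subunit of calprotectin, had 9.55, 10.6 and 9.85 FPKM with SGFD, against 3.86, 5.69 and 4.88 FPKM with CD, and its partner S100a9 had 8.54, 10.2 and 11.1 FPKM with SGFD, against 5.48, 4.05 and 4.87 FPKM with CD. Ly6g, the surface antigen that defines mouse neutrophils, had 1 fragment in SGFD replicate 3 and 1 in CD replicate 3 and none in the other libraries. Stfa1 and Stfa2, stefins of mature neutrophils, were at 0 in all 6 libraries. The 8 mature neutrophil markers summed to 54.0 to 58.4 FPKM with SGFD and to 49.7 to 57.1 FPKM with CD, so the sums overlapped. Csf3r, lower with SGFD, made up most of the CD sums, and without it the other 7 markers summed to 27.9 to 31.3 FPKM with SGFD, against 11.2 to 11.8 FPKM with CD. That second sum was added after the values were seen, by leaving out the only marker of the 8 that was wholly below. Its lack of overlap follows from that choice, and nothing is read from it. Of the 8, 4 had SGFD values wholly above CD values, 1 wholly below, and Ly6g, Il1r2 and Stfa2l1 were under 1 FPKM in every library.

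Markers of other cell types moved with the diet beside these genes; over all genes above 0, 15.1% were wholly above and 36.4% wholly below. All 8 monocyte markers had SGFD values wholly above CD values and summed to 206 to 217 FPKM with SGFD, against 44.6 to 46.1 FPKM with CD. All 5 markers of granulocyte-monocyte progenitors did so too, with sums of 3441 to 3825 FPKM with SGFD, against 869 to 897 FPKM with CD, but 4 of the 5 are the azurophil genes Mpo, Elane, Prtn3 and Ctsg described above. The other, Ms4a3, had 121, 111.1 and 123 FPKM with SGFD, against 10.5, 9.36 and 9.06 FPKM with CD. Macrophage markers summed to 1.71 to 2.35 FPKM with SGFD, against 8.93 to 10.4 FPKM with CD, with 6 of 7 wholly below. Without Vcam1 and Cd163, which are also in the list of receptors and ligands below, the other 5 summed to 0.973 to 1.30 FPKM with SGFD, against 6.31 to 7.71 FPKM with CD. Among erythroid markers 4 of 5 were wholly below, with sums of 4.90 to 6.42 FPKM with SGFD, against 18.4 to 21.2 FPKM with CD. B cell sums overlapped at 24.2 to 24.96 FPKM with SGFD and 23.2 to 29.5 FPKM with CD, though 4 of 5 markers were wholly below. Cd79b, at a mean of 24.0 FPKM with SGFD and 23.1 FPKM with CD, made up most of these sums and was kept in them. T cell markers summed to 1.27 to 1.62 FPKM with SGFD, against 1.92 to 2.28 FPKM with CD, with Cd3e at 0 throughout. Basophil and mast cell markers, 2 of 4 of them wholly above, summed to 47.1 to 54.7 FPKM with SGFD, against 31.9 to 37.2 FPKM with CD. Monocytes, granulocyte-monocyte progenitors and macrophages can also express several of the 10 genes, and their part in these results was not tested.

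**Figure D4:**
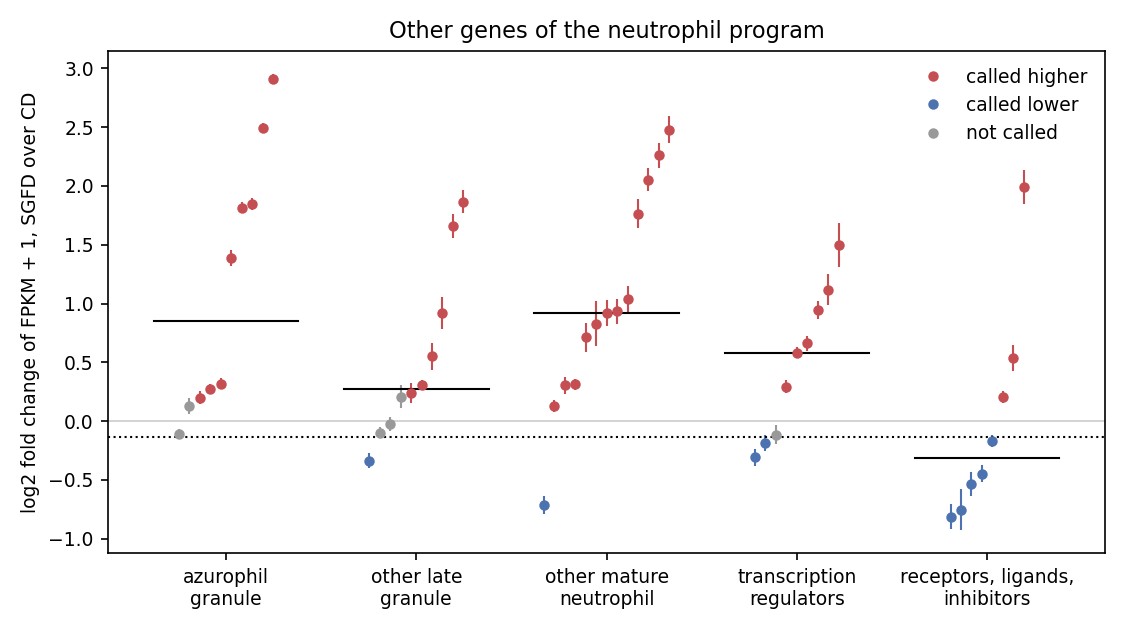
Log2 fold change of FPKM + 1, SGFD over CD (vertical axis, points with SE bars from limma), for the tested genes of 5 lists. Red genes were called higher, blue lower and grey not called; black lines are list medians and the dotted line is the median of all tested genes at -0.13.

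Transcription factors of progenitors and myeloid cells, listed here as regulators, mostly rose. All 9 of the list were tested, 6 rose and 2 fell, and the list median was 0.58 on the log2 scale. Of all tested genes, 17.7% were called higher and 41.8% lower. Whether any of the 9 acts on granule genes in these cells was not tested. Irf8, Cebpb and Cebpa had log2 fold changes of 0.58 ± 0.05, 0.94 ± 0.08 and 0.66 ± 0.06 (SE), and Cebpd had one of 1.12 ± 0.13. Cebpe, singled out after its values were seen because it drives secondary granule genes in mice, had 5.46, 3.68 and 4.36 FPKM with SGFD, against 0.886, 1.59 and 0.472 FPKM with CD (limma, adjusted p = 0.0001). Gfi1, a repressor needed for neutrophil formation, was not called, at 12.3 ± 1.22 FPKM with SGFD and 13.4 ± 0.8 FPKM with CD (SD, n = 3 each; limma, adjusted p = 0.227). Myb, the progenitor factor that is the most abundant of the list, fell by 0.31 on the log2 scale (limma, adjusted p = 0.00381), and the call was lost after median-ratio scaling (adjusted p = 0.0706). Runx1 fell by 0.19 on the log2 scale (limma, adjusted p = 0.04). This call did not hold when leaving out SGFD replicate 1 (adjusted p = 0.106), SGFD replicate 3 (0.129), CD replicate 1 (0.123), CD replicate 2 (0.0741) or CD replicate 3 (0.0711), and its adjusted p ranged over all alternatives between 0.00336 and 0.625, the last after median-ratio scaling.

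Receptors, ligands and inhibitors that act with the 10 proteins included called genes of both directions. Of 15 listed, 8 were tested, 3 rose and 5 fell, and the list median was -0.31 on the log2 scale, where 17.7% of all tested genes were called higher and 41.8% lower. The filter admitted Vcam1 and Cd163 through CD alone, so they could only be lower, and without them 3 rose and 3 fell of 6, with a median of 0.017. Cxcl2, a ligand of the Cxcr2 receptor, had 26.5, 33.7 and 21.3 FPKM with SGFD, against 7.04, 5.24 and 5.79 FPKM with CD (limma, adjusted p = 2.96e-06). The ligands Cxcl1, Cxcl3, Cxcl5 and Ppbp were below the filter. Cxcr4, which holds cells in the marrow and is the most abundant of this list, had 46.4 ± 3.13 FPKM with SGFD and 40.1 ± 0.468 FPKM with CD (limma, adjusted p = 0.00719). Lrp1, an uptake receptor for many ligands, lactoferrin and proteases among them, rose by a log2 fold change of 0.54 ± 0.11 (SE). Timp2, an inhibitor of matrix metalloproteinases, had 7.85 ± 0.503 FPKM with SGFD and 11.1 ± 0.58 FPKM with CD (limma, adjusted p = 0.000512). Cd163, the receptor for haptoglobin bound to hemoglobin, had 0.531 ± 0.13 FPKM with SGFD and 1.21 ± 0.0448 FPKM with CD, and Vcam1 had 0.362 ± 0.135 FPKM with SGFD and 1.38 ± 0.0401 FPKM with CD (SD, n = 3 each). Slc22a17, a receptor for lipocalin 2 singled out after its values were seen, had 1.99 FPKM on average with SGFD and 3.90 FPKM with CD (limma, adjusted p = 0.00378).

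Gene relatives of the 10 showed that the metalloproteinase mRNAs in these cells were mainly others than Mmp8 and Mmp9. Of 35 relatives listed, 34 were in the tables, 7 of them at 0 in all libraries and 9 at a mean of at least 1 FPKM in either diet. Mmp14, a membrane-bound metalloproteinase, had 7.14 ± 0.868 FPKM with SGFD and 2.45 ± 0.306 FPKM with CD, and Mmp2, gelatinase A, had 3.47 ± 0.21 FPKM with SGFD and 7.61 ± 0.0886 FPKM with CD (SD, n = 3 each). Both passed the test, Mmp14 higher (limma, adjusted p = 8.77e-06) and Mmp2 lower (adjusted p = 6.32e-06). Trf, transferrin, a relative of lactoferrin, was far more abundant than Ltf, at 77.6 ± 4.95 FPKM with SGFD and 60.8 ± 1.59 FPKM with CD. Mmp11, Mmp28 and Mmp15 overlapped between the diets. Of these Mmp11 was called lower (limma, adjusted p = 0.0194), with an adjusted p as high as 0.297 over the alternatives. Mmp19 had all SGFD values above all CD values, at 1.04 ± 0.204 FPKM with SGFD and 0.255 ± 0.0859 FPKM with CD (SD, n = 3 each). It did not reach the filter and was not tested. Cxcr1, the sister receptor of Cxcr2, had 4 to 9 fragments in each SGFD library and 4 to 6 in each CD library.

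The genes whose profile over the 6 libraries was most like the mean z-score of the 6 tested members were Selm, Cst7, Sdhd, Ly86 and Palm, at Pearson's r of 0.997 to 0.999. That mean mixes directions, since Padi4 was lower with SGFD and the other 5 higher, and the filter admitted Lcn2, Camp and Cxcr2 through SGFD alone. The diets form separate clusters, so r is only a measure of likeness here, and 733 of 10614 other tested genes reached 0.95. Cst7, cystatin F of immune cells, had 98.9 ± 6.32 FPKM with SGFD and 35.9 ± 1.44 FPKM with CD, and Ly86, which encodes MD-1 of myeloid and B cells, had 20.8 ± 2.43 FPKM with SGFD and 5.03 ± 0.211 FPKM with CD (SD, n = 3 each).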

How the data were processed

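Each of 6 deposited tables gives 1 value per gene symbol and library. HISAT2, StringTie and fastp are listed in the submitters' processing notes with mm10 and GRCm38 as builds, without versions; the annotation, the filters and the strand setting of the counting are not given in the sources used here. The labels' protocols name a stranded mRNA kit. The values deposited by the authors are taken as FPKM, a unit inferred from the values: fragments recovered as whole multiples of a step per gene and library (tolerance 0.01, Python 3.11.15, numpy 2.4.6) were found for all 15509 genes above 0, and for 0 of 300 genes with perturbed values. Counts models were not used, since the deposited values are not counts.

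Log2(FPKM + 1) was fitted with limma 3.58.1 in R 4.3.3 (empirical Bayes, trend and robust) for the genes that reached 1 FPKM in 3 or more libraries, two-sided, with Benjamini-Hochberg adjustment over all of them. A pseudocount of 1 understates the change of low genes; folds given as ratios are of mean FPKM. The fit was run on simulated data (10620 genes, 200 changed) and called 100% of changes of 1 or 0.5 on the log2 scale, with 4.83% false calls. The simulated spread was small, the same at every level and without counting error. These shares therefore check the code only and do not give the error rates for these libraries or for scarce genes. Counting intervals are exact at 95%. Members and lists were chosen with earlier results of these data known. Text names all 10 members and, per list, the 4 called genes of smallest adjusted p, called genes against the list's direction and the most abundant gene; others named were chosen after their values were seen. Alternatives were the filter, the pseudocount, the scaling, the replicate number as a block, the threshold and each library left out. List counts without genes admitted by a single diet, and marker sums without genes shared with another list, were added after seeing the data. So was the mature neutrophil sum without Csf3r, a step not applied to the B cell sum. Coordinates and promoters are from RefSeq GRCm38.p6.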

Additional observations from a re-analysis of the deposited data

How the results depend on the processing

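The direction of all 10 genes kept its sign under the 9 alternatives run for them (a pseudocount of 0.1, median-ratio scaling, quantile normalization and each library left out). For low genes the pseudocount sets the size. Lcn2 differed by 3.36 on the log2 scale of FPKM + 1 and by 5.03 with a pseudocount of 0.1, and Mmp8 by 0.78 and 2.40. Padi4 moved from -0.57 to -0.42 after median-ratio scaling. A kept sign means little for Mmp9 and Chil3, whose diets overlapped. Mmp9 came to -0.021 after quantile normalization, and Chil3 to 0.080 without SGFD replicate 3. Median-ratio scaling gave 3163 genes higher and 2721 lower in place of 1875 and 4438, and quantile normalization 2552 lower. Genes called lower in the regulator list numbered 2, but 1 without the filter, after quantile normalization, with the replicate block or at an adjusted p of 0.01, 0 after median-ratio scaling, and 1 to 3 when a library was left out. In the other late granule list, 2 in place of 1 were lower without the filter, and 1 to 2 when a library was left out. A filter of 5 FPKM left 7 mature neutrophil genes called higher and 2 partner genes called lower, since fewer genes were tested. Leaving out genes that reached the filter in a single diet, chosen after seeing the data, left 3 partner genes called lower in place of 5. Quantile normalization called 1 azurophil gene lower. The other counts stayed within 1.5 times. The replicate numbers do not pair the samples: deviations of same-numbered libraries correlated at -0.00677, -0.227 and -0.133, and with the replicate block 1706 genes were higher and 4087 lower. Depth limits Mmp9, Chil3, Camp and the CD values of Lcn2, Mmp8 and Ltf, which rest on 0 to 21 fragments a library.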
